A study of Mus musculus with 26 samples.

Results

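Potassium channel subunit genes were followed through RNA sequencing of mouse striatum in Huntington's disease models. Members were the genes whose symbol names a pore-forming or auxiliary potassium channel subunit (Kcna, Kcnab, Kcnb, Kcnc, Kcnd, Kcnf, Kcng, Kcnh, Kcnj, Kcnk, Kcnm, Kcnn, Kcnq, Kcns, Kcnt, Kcnv and Kcnip, with the Kcne genes left out). They also had to reach a mean FPKM (fragments scaled to transcript length and to the number of mapped fragments) of at least 0.5 over both groups of at least 1 table. The rule found 73 genes of the 14833 listed in any of the 5 deposited tables, and no gene that matched by symbol failed the FPKM minimum. Just inside it were Kcnmb1, with a highest table mean of 0.556, Kcnj5 with 0.746 and Kcnj14 with 0.776.

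The study has 26 libraries in 9 groups, all of striatum. The R6/1 transgene is exon 1 of human huntingtin with an expanded CAG repeat; these mice were set against wild type at 4 weeks and at 8 weeks. CHL2 mice carry an expanded CAG repeat in the mouse huntingtin gene, and were set against wild type at 1 year. Each of these 6 groups has 3 libraries. The other groups received an adeno-associated virus (AAV) and were sampled at 10 weeks: wild type with control AAV (2 libraries), R6/1 with control AAV (2) and R6/1 with AAV carrying the transcription factor Elk-1 (4). The control vector is named mCherry in the tables. The labels read here do not state sex, zygosity, the viral promoter, the cells it reaches, or if each library is a separate animal.

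Potassium channels let potassium leave the cell, set the resting potential and end or space action potentials. Voltage-gated Kv channels open on depolarization, Kv beta and KChIP proteins adjust their inactivation and surface level, inward rectifiers (Kir) conduct near rest, tandem-pore channels carry a background leak, and the BK and SK channels open on calcium. Spiny projection neurons, the main neurons of striatum, are known for strong Kir current that holds them at a negative resting potential and for A-type current through Kv4 with its KChIP partners.

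The tables give 1 pooled FPKM value per group and the authors' own test, so no value per library, SD or interval can be shown. A gene is called higher or lower where the authors' deposited table lists q below 0.05. Elk1 checks the vector label: it went from 15.1 in control-AAV R6/1 to 30.1 in Elk-1-AAV R6/1 (q = 0.0122 by the authors' deposited table). All 10 markers of spiny projection neurons were listed above 0 in every group, among them Ppp1r1b, Pde10a, Drd1a and Penk. In these 4 genotype comparisons 2, 9, 10 and 9 of the 10 were called lower. Their summed FPKM was 2901 in wild type and 2274 in R6/1 at 4 weeks, 3325 and 1277 at 8 weeks, 3093 and 1597 in wild type and CHL2, and 2520 and 1156 in the control-AAV groups. In bulk tissue, fewer cells of a type and less RNA per cell cannot be told apart. Markers of tissue next to striatum moved too. The summed FPKM of 4 cortical excitatory markers went from 301 to 187 at 8 weeks (4 of 4 called lower) and from 566 to 293 between the control-AAV groups (4 of 4 called lower). In CHL2 that sum was 180 in wild type and 186 in the model, with 0 of 4 called by the authors' deposited table at q below 0.05. None of the markers named in this paragraph was at 0.

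Among the members, the auxiliary subunits and the Kir channel Kcnj4 had the highest levels. Levels are FPKM, which is per length, and the range given is over the 3 uninjected wild-type pools of 4 weeks, 8 weeks and 1 year, which were normalized in separate tables. Kcnab1, the Kv beta subunit that speeds inactivation of Kv1 channels, had a median of 125 (124 to 151). Kcnip2, the KChIP partner of Kv4, had 113 (104 to 132), Kcnab2 107 (97.3 to 113) and Kcnj4 92.1 (85.0 to 101). The ranges of neighbours in this order overlap, while that of Kcnab1 lies above those of Kcnab2 and Kcnj4. Near 50.6 to 51.9 stood the astrocyte Kir channel Kcnj10 (50.6, 42.0 to 59.2), the KChIP gene Kcnip3 (51.4, 49.1 to 58.9), Kcnh3 and Kcnk1, with ranges that overlap. The highest level in a subfamily was that of Kcnk1 among tandem-pore channels (51.9), Kcnh3 among the EAG, ERG and ELK channels (50.8), Kcnmb4 among BK subunits (48.9) and Kcnt1 among sodium-activated channels (42.8). For Kv4 it was Kcnd2 (41.8), for Kv3 Kcnc1 (36.9), for Kv1 Kcna1 (32.5), for the silent Kv subunits Kcnf1 (28.1) and for SK channels Kcnn2 (13.9).

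The number of members called lower was 0 of 73 in R6/1 at 4 weeks, 12 of 72 at 8 weeks, 10 of 73 in CHL2 and 13 of 67 between the control-AAV groups. At q below 0.05, the share of all genes called lower in these tables was 0.193%, 5.34%, 1.97% and 2.51%, against 0%, 16.7%, 13.7% and 19.4% of the members. Called higher were 3 of 73 members at 4 weeks (background 0.275%), 0 of 72 at 8 weeks (0.789%), 3 of 73 in CHL2 (1.67%) and 0 of 67 between the control-AAV groups (0.724%). Where the authors' test at q below 0.05 gave 0 members, unadjusted p below 0.05 gave 3 lower at 4 weeks (background 2.1%), 2 higher at 8 weeks (3.86%) and 0 higher in control-AAV R6/1 (3.88%). At unadjusted p below 0.05, 25 members were lower at 8 weeks (background 10.4%), 11 higher (6.75%) and 18 lower (6.52%) in CHL2, and 21 lower in control-AAV R6/1 (6.8%). No test compared the members with the rest of the genes. The median log2(FPKM + 1) change of the members was 0.067, -0.13, -0.015 and -0.26 in these 4 comparisons. The same median over all genes that reached the FPKM minimum was 0.0012, 0.0059, 0.0020 and 0.014.

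**Figure D1:**
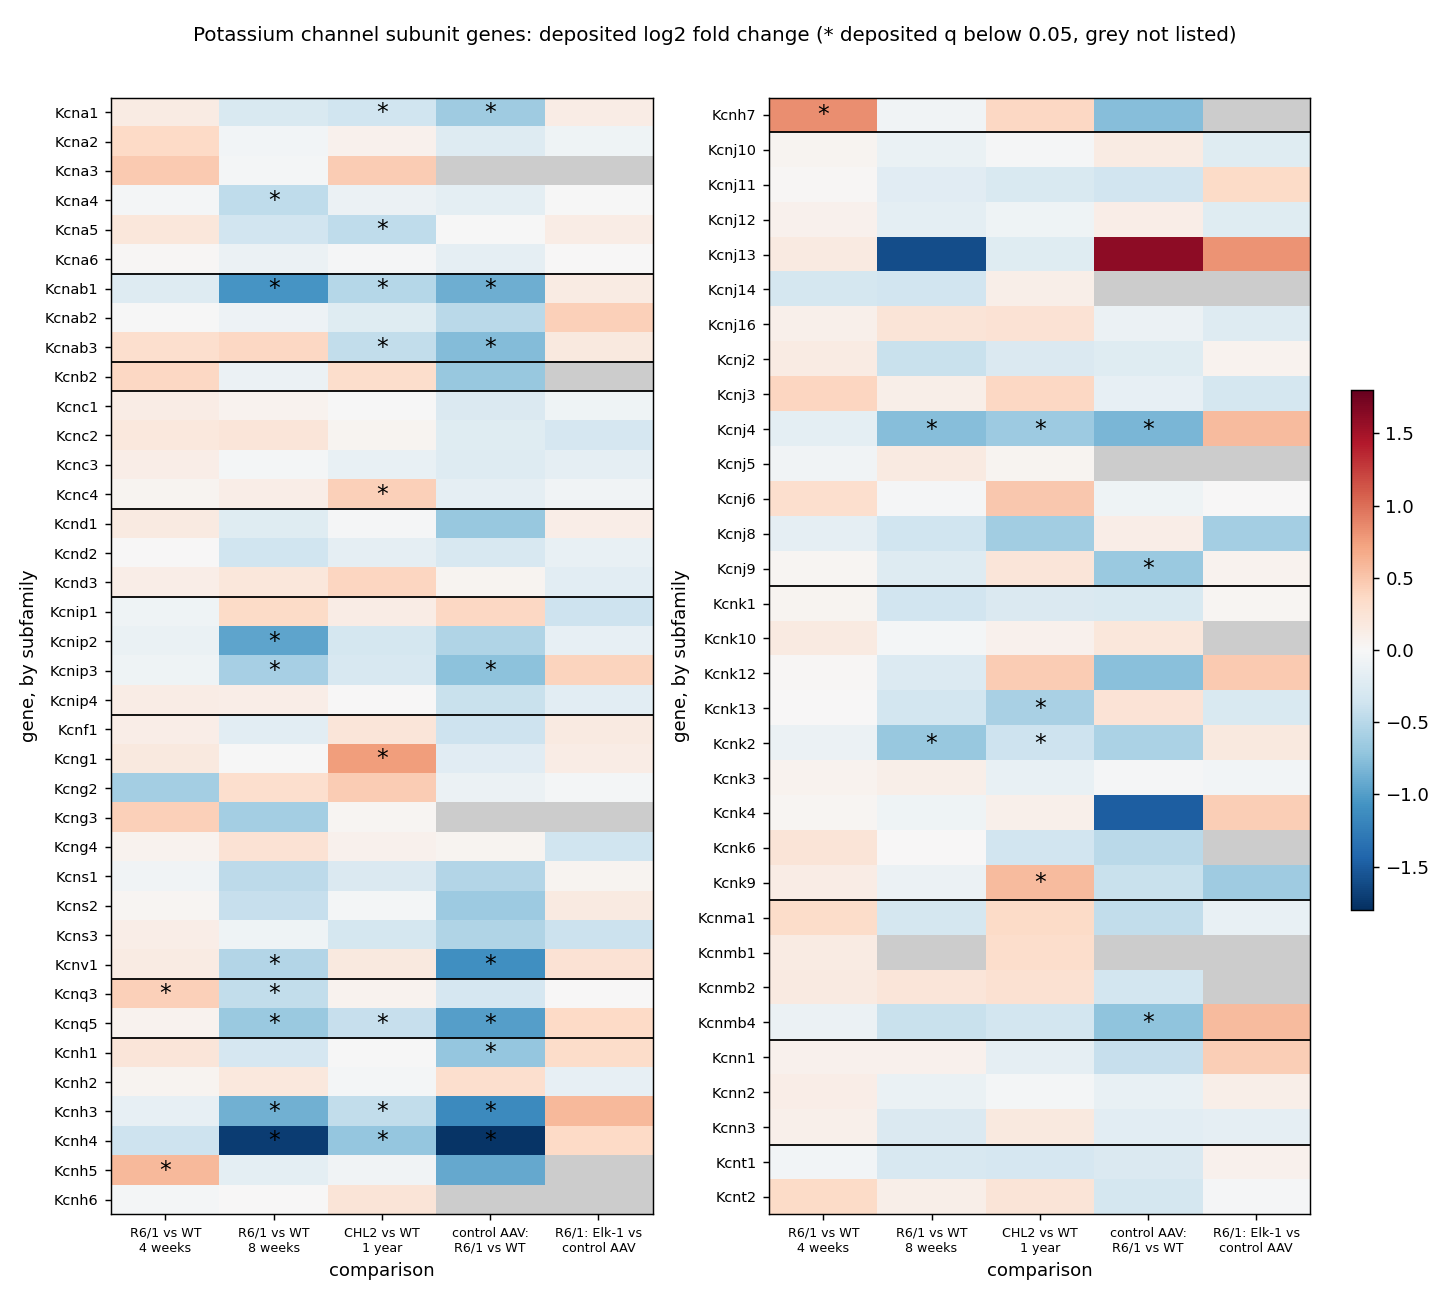
Deposited log2 fold change (colour) of 70 members (rows, grouped by subfamily) in the 5 comparisons (columns). A star marks q below 0.05 in the authors' deposited table and grey a gene not listed there; 11, 10 and 12 blue cells carry a star in the 8-week, CHL2 and control-AAV columns and 3 red cells each in the 4-week and CHL2 columns.

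The members called lower had a higher median wild-type level than those not called, with ranges that overlap. At 8 weeks the 12 members called lower had a median wild-type FPKM of 40.7 (13.6 to 151), against 9.33 (0.521 to 113) for the 60 not called. Of all 73 members, 24 were called in at least 1 table and 49 in none. In either direction, 0.468%, 6.12%, 3.65% and 3.24% of all genes were called in the 4 genotype tables, each share being of 1 table. The share of all genes called in at least 1 table was not computed, so the 24 of 73 cannot be set against these. In the genotype comparisons 19 members were called lower at least once: 5 in 3 comparisons, 6 in 2 and 8 in 1. These counts were likewise not computed over all genes. The 8-week and CHL2 calls shared 6 lower genes, 50% of the 8-week list and 60% of the CHL2 list. The 8-week and control-AAV calls shared 8, which is 66.7% and 61.5%, and the CHL2 and control-AAV calls shared 7, which is 70% and 53.8%. Over all genes called lower, the 8-week and CHL2 lists shared 192 genes (25.1% and 67.6%), the 8-week and control-AAV lists 219 (28.7% and 67.2%) and the CHL2 and control-AAV lists 97 (34.2% and 29.8%). No test compared the members' overlaps with these, so the overlaps are not shown to be particular to the members.

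Called lower in R6/1 at 8 weeks, in CHL2 and in control-AAV R6/1 were Kcnab1, Kcnh3, Kcnh4, Kcnj4 and Kcnq5. They belong to the Kv beta subunits, the ELK channels, the Kir channels and the M-current channels. A single gene does not stand for its subfamily, and the other genes of each are described below. On mm9, the tables list Kcnab1 on chromosome 3 from 64913564 to 65182141, Kcnh4 on chromosome 11 from 100601691 to 100621092 and Kcnj4 on chromosome 15 from 79314143 to 79335671. Kcnq5 is listed on chromosome 1 from 21388483 to 21952023 and Kcnh3 on chromosome 15 from 99055406 to 99092472, each a gene span and not an exon. Kcnh3 shares its listed position with Mcrs1 and 1700120C14Rik, so its reads may not all be its own. Kcnd3, Kcnip1, Kcnip4, Kcnk3, Kcnmb1, Kcnmb4 and Kcnn2 also share a listed position with another gene in at least 1 table.

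The bases before the annotated start of these genes are shown because the 5 members were called lower in the same comparisons, which is how they were picked. Each run is the 250 bases before the most upstream RefSeq start on GRCm38.p6, 5′ to 3′ on the gene's strand; RefSeq gave a window for 52 of the 73 members and for 4 of these 5 genes. Capitals mark an E-box (CACGTG, which reads the same on both strands) or an Sp1-type GC box (GGGCGG, either strand).
Kcnab1 (chr3:64948962-64949211, plus strand): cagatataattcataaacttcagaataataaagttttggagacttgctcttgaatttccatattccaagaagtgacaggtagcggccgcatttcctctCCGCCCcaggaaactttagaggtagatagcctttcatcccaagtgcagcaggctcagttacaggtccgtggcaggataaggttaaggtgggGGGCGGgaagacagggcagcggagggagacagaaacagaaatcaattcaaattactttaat
Kcnh4 (chr11:100759779-100760028, minus strand): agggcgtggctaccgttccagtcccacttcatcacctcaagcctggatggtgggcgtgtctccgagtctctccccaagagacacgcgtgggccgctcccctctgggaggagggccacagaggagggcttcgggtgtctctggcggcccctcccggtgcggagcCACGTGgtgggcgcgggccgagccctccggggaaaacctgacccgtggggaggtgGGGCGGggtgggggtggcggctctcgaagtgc
Kcnj4 (chr15:79505242-79505491, minus strand): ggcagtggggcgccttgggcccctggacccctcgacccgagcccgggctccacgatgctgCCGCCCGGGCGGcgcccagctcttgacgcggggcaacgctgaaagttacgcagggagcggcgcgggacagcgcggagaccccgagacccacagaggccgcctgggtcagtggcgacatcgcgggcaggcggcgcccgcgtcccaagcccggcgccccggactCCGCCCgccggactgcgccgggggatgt
Kcnq5 (chr1:21962651-21962900, minus strand): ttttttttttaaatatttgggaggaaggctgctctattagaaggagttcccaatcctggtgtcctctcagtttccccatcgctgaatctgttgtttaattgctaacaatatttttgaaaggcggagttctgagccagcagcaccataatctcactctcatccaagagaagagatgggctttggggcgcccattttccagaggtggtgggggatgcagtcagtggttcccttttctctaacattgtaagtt
In the windows shown, Kcnab1 and Kcnj4 hold GC boxes, Kcnh4 a GC box and an E-box, and Kcnq5 neither. Kcnab1 has 3 starts, and each of its windows not shown here holds an E-box. The GC content of the windows shown was 45.2% for Kcnab1, 70.8% for Kcnh4, 77.2% for Kcnj4 and 44.4% for Kcnq5. The median was 59.2% over the member windows and 52.4% over all windows.

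Over the 75 windows of members, some genes having several starts, 34 (45.3%) held the GC box, against 32.7% of all 32851 windows. The E-box was in 4 windows (5.33%), against 6.02% of all. The ETS site that Elk-1 can bind (CCGGAAGT) was in 0 of 75 windows and in 2.88% of all. Likewise in 0 of 75 were the cAMP response element (TGACGTCA, 1.55% of all), the EGR1 site (GCGTGGGCG, 0.536%) and the SRF CArG box (1.47%). TGACG, which lies within the response element, was in 11 windows (14.7%, against 17.8% of all), Kcnj4 among them. All were searched on both strands. In the 21 windows of members called lower, 9 held the GC box, 3 the E-box and 0 the ETS site. Sites this rare over all windows can be absent from 75 windows without the members lacking them. The windows hold 250 bases each and cover 52 of the 73 members. A match is a description, and these windows do not show which start the striatal transcripts use.

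The Kv beta subunits held the member with the highest level and one of the broadest falls. Kcnab1 went from 151 to 72.2 at 8 weeks (log2 fold change -1.06, q = 0.00160), from 125 to 87.9 in CHL2 (-0.51, q = 0.00303) and from 100 to 54.6 in control-AAV R6/1 (-0.87, q = 0.00312) in the authors' deposited tables. At 4 weeks it stood at 124 and 105 (q = 0.918 by the authors' deposited table). Kcnab3, another beta subunit, went from 15.3 to 11.2 in CHL2 (q = 0.0329) and from 30.7 to 17.8 in control-AAV R6/1 (q = 0.00983) in the authors' deposited tables. Its 8-week values lay the other way, 9.22 in wild type and 11.9 in R6/1, without a call (q = 0.197 by the authors' deposited table). Kcnab2 was called in no table; its values were 113 and 106 at 8 weeks, 107 and 91.8 in CHL2, and 145 and 103 between the control-AAV groups.

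Of the 4 KChIP genes, Kcnip2 and Kcnip3 were called. The lower calls were 2 of 4 at 8 weeks (background 5.34%), 0 of 4 in CHL2 (1.97%) and 1 of 4 in control-AAV R6/1 (2.51%). Kcnip2, on chromosome 19 (mm9 45868159 to 45890293), fell from 132 to 68.1 at 8 weeks (log2 fold change -0.95, q = 0.00160 by the authors' deposited table). In CHL2 it stood at 113 and 90.8 (q = 0.155) and in the control-AAV groups at 90.3 and 62.0 (q = 0.266 in the authors' deposited tables). Kcnip3, which encodes KChIP3 and is also known as the transcriptional repressor DREAM, fell from 58.9 to 39.0 at 8 weeks (-0.59, q = 0.00160) and from 62.0 to 37.3 in control-AAV R6/1 (-0.73, q = 0.00548) in the authors' deposited tables. Kcnip1 and Kcnip4 were not called; Kcnip1 read 9.44 and 11.96 at 8 weeks, and Kcnip4 read 25.4 and 27.6. The Kv4 pore genes themselves were called in no table. Kcnd2, the main Kv4 gene of spiny neurons, stood at 50.01 and 38.9 at 8 weeks, just outside the threshold (q = 0.0675 by the authors' deposited table). Kcnd3 was at 15.4 and 17.8 at that age, and Kcnd1 at 5.09 and 4.38.

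Kv1 channels set the threshold and timing of firing, and Kcna1, Kcna4 and Kcna5 were called lower in at least 1 table. These calls were 1 of 6 at 8 weeks (background 5.34%), 2 of 6 in CHL2 (1.97%) and 1 of 5 listed in control-AAV R6/1 (2.51%). Kcna4, the A-type Kv1 gene, fell from 14.2 to 10.4 at 8 weeks (q = 0.0173 by the authors' deposited table). Kcna1 fell from 32.5 to 25.3 in CHL2 (q = 0.0476) and from 28.4 to 18.2 in control-AAV R6/1 (q = 0.0266) in the authors' deposited tables. Kcna5 fell from 10.3 to 7.50 in CHL2 (q = 0.0386 by the authors' deposited table). Kcna2, Kcna3 and Kcna6 were called nowhere. Whether any of these effects differs between the tables was not tested.

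The Kv3 genes, which support fast spiking in parvalbumin interneurons, gave 1 call in 4 genes over the 4 genotype tables: Kcnc4 rose from 16.8 to 22.7 in CHL2 (0.43, q = 0.0262 by the authors' deposited table). Of all genes, 1.67% were called higher in CHL2. Kcnc1 was at 36.9 and 38.5 at 8 weeks and at 38.2 and 31.9 between the control-AAV groups. Kcnc2 was at 12.7 and 14.7, and at 18.7 and 16.1, in those tables.

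Silent Kv subunits form no channel alone and modify Kv2 channels. Kcnv1 fell from 18.6 to 12.9 at 8 weeks (log2 fold change -0.53, q = 0.00300) and from 23.5 to 10.96 in control-AAV R6/1 (-1.10, q = 0.00312) in the authors' deposited tables. In CHL2 its values were 13.6 and 15.4. Kcng1 rose in CHL2 from 8.89 to 14.9 (0.75, q = 0.00303 by the authors' deposited table), and was at 14.6 and 14.5 at 8 weeks. Kcnf1, Kcng2, Kcng3, Kcng4, Kcns1, Kcns2 and Kcns3 were called in no table. The 2 comparisons in which Kcnv1 was called are those in which the cortical markers were called lower. Kcnip3 was called lower in the same 2 comparisons, so this pattern is not particular to Kcnv1. The part of the cortical markers in these results was not tested.

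Kv7 channels carry the M-current, which acetylcholine suppresses through muscarinic receptors. Kcnq5 fell from 21.5 to 13.5 at 8 weeks (log2 fold change -0.67), from 18.9 to 14.2 in CHL2 (-0.41, q = 0.0111) and from 15.8 to 7.96 in control-AAV R6/1 (-0.99) in the authors' deposited tables. Kcnq3, another M-current gene, was called in opposite directions at the 2 ages of R6/1. It rose from 16.0 to 21.6 at 4 weeks (0.43, q = 0.0260) and fell from 29.9 to 21.9 at 8 weeks (-0.45, q = 0.0129) in the authors' deposited tables. The R6/1 values at both ages lie close together, and the wild-type values lie on either side of them. No test of the difference between the ages was run, and levels set across tables rest on separate normalizations.

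The EAG, ERG and ELK genes gave the member with the most negative fold change among the calls, the ELK gene Kcnh4. It went from 13.6 to 4.17 at 8 weeks (log2 fold change -1.71, q = 0.00160) and from 8.73 to 2.57 in control-AAV R6/1 (-1.76, q = 0.00312) in the authors' deposited tables. In CHL2 it went from 12.3 to 7.59 (-0.70, q = 0.00303), and at 4 weeks it read 10.2 and 7.93 without a call (q = 0.221) in the authors' deposited tables. Kcnh3, the other ELK gene listed, fell from 52.3 to 28.7 (-0.86) at 8 weeks, from 50.8 to 37.3 (-0.45) in CHL2 and from 55.6 to 25.2 (-1.14) in control-AAV R6/1 in the authors' deposited tables. Kcnh1, an EAG gene, fell from 15.4 to 9.50 in control-AAV R6/1 (-0.70, q = 0.0156 by the authors' deposited table). Kcnh2 and Kcnh6, both ERG genes, were called in no table.

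Among the 13 Kir genes, Kcnj4 was called in 3 tables and Kcnj9 in 1. At 8 weeks 1 of 13 was called lower (7.69%, against 5.34% of all genes), which is near the background. In CHL2 it was 1 of 13 (7.69%, against 1.97%) and in control-AAV R6/1 2 of 11 listed (18.2%, against 2.51%). Kcnj4, which encodes Kir2.3, fell from 101 to 59.5 at 8 weeks (log2 fold change -0.77), from 92.1 to 58.6 in CHL2 (-0.65) and from 97.5 to 55.0 in control-AAV R6/1 (-0.82) in the authors' deposited tables. Its 4-week values were 85.0 and 75.5 (q = 0.999 by the authors' deposited table). Kcnj2, the Kir2.1 gene, read 12.6 and 9.51 at 8 weeks, just outside the threshold (q = 0.0583 by the authors' deposited table), 11.02 and 9.22 in CHL2 and 5.48 and 4.70 in the control-AAV groups. Kcnj9, a subunit of the G protein-gated Kir channels, fell from 47.7 to 30.1 in control-AAV R6/1 (-0.66, q = 0.0217 by the authors' deposited table). The astrocyte genes Kcnj10 and Kcnj16 and the pericyte gene Kcnj8 were not called in any table. Kcnj10 read 50.6 and 46.6 at 8 weeks, 42.0 and 41.2 in CHL2 and 49.7 and 55.2 in the control-AAV groups, and Kcnj16 read 6.67 and 7.84, 6.64 and 7.92, and 6.81 and 6.35. Kcnj8 stayed between 1.39 and 2.80 in all pools.

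Kcnj13, the Kir gene of choroid plexus epithelium, had large fold changes without a call. It read 16.9 in wild type and 5.63 in R6/1 at 8 weeks (log2 fold change -1.59, q = 0.946), and 2.82 and 8.62 in the control-AAV groups (1.61, q = 0.696) in the authors' deposited tables. It shares its listed position with Gigyf2. The summed FPKM of 6 choroid plexus markers went from 1499 to 578 at 8 weeks (5 of 6 called lower) and from 341 to 1572 in control-AAV R6/1 (3 of 6 called higher) in the authors' deposited tables. None of the 6 was at 0 in any group. The part of choroid plexus tissue in the Kcnj13 values was not tested.

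Tandem-pore channels carry leak current. Kcnk2, the TREK-1 gene, fell from 45.4 to 28.4 at 8 weeks (log2 fold change -0.68, q = 0.00160) and from 32.8 to 25.2 in CHL2 (-0.38, q = 0.0466) in the authors' deposited tables. Between the control-AAV groups it read 32.5 and 21.9 (q = 0.1002 by the authors' deposited table). Kcnk13, the THIK-1 gene of microglia, fell in CHL2 from 6.77 to 4.54 (-0.58, q = 0.0111 by the authors' deposited table). There the summed FPKM of 5 microglial markers was 217 in wild type and 185 in CHL2, with 0 of 5 called and none at 0. Kcnk13 read 4.03 and 4.05 at 4 weeks (marker sum 165 and 152) and 5.24 and 4.16 at 8 weeks (167 and 167). It read 5.42 and 6.40 between the control-AAV groups (224 and 181), and 6.56 and 5.40 from control to Elk-1 AAV (185 and 308). The part of microglia in the Kcnk13 values was not tested. Kcnk9, the TASK-3 gene, rose in CHL2 from 10.9 to 16.2 (0.56, q = 0.0298 by the authors' deposited table). Kcnk1 read 54.5 and 43.1 at 8 weeks (q = 0.0893), and Kcnk4 read 6.22 and 2.22 in the control-AAV groups (q = 0.0826), both outside the threshold in the authors' deposited tables.

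BK channels gave 1 call and SK and sodium-activated channels none in any table. The BK call was 1 of 3 genes listed in the control-AAV genotype comparison, where 2.51% of all genes were called lower. Kcnmb4, the neuronal beta subunit of BK channels, fell from 98.9 to 59.8 in control-AAV R6/1 (log2 fold change -0.73, q = 0.0251 by the authors' deposited table). At 8 weeks it read 46.1 and 34.8 (q = 0.0692 by the authors' deposited table). The BK pore gene Kcnma1 read 16.5 and 20.8 at 4 weeks, 25.2 and 20.2 at 8 weeks, 16.3 and 20.6 in CHL2 and 9.70 and 7.13 between the control-AAV groups, with no call. Kcnn2 stayed between 12.7 and 18.8 and Kcnt1 between 25.4 and 54.2 over all pools.

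**Figure D2:**
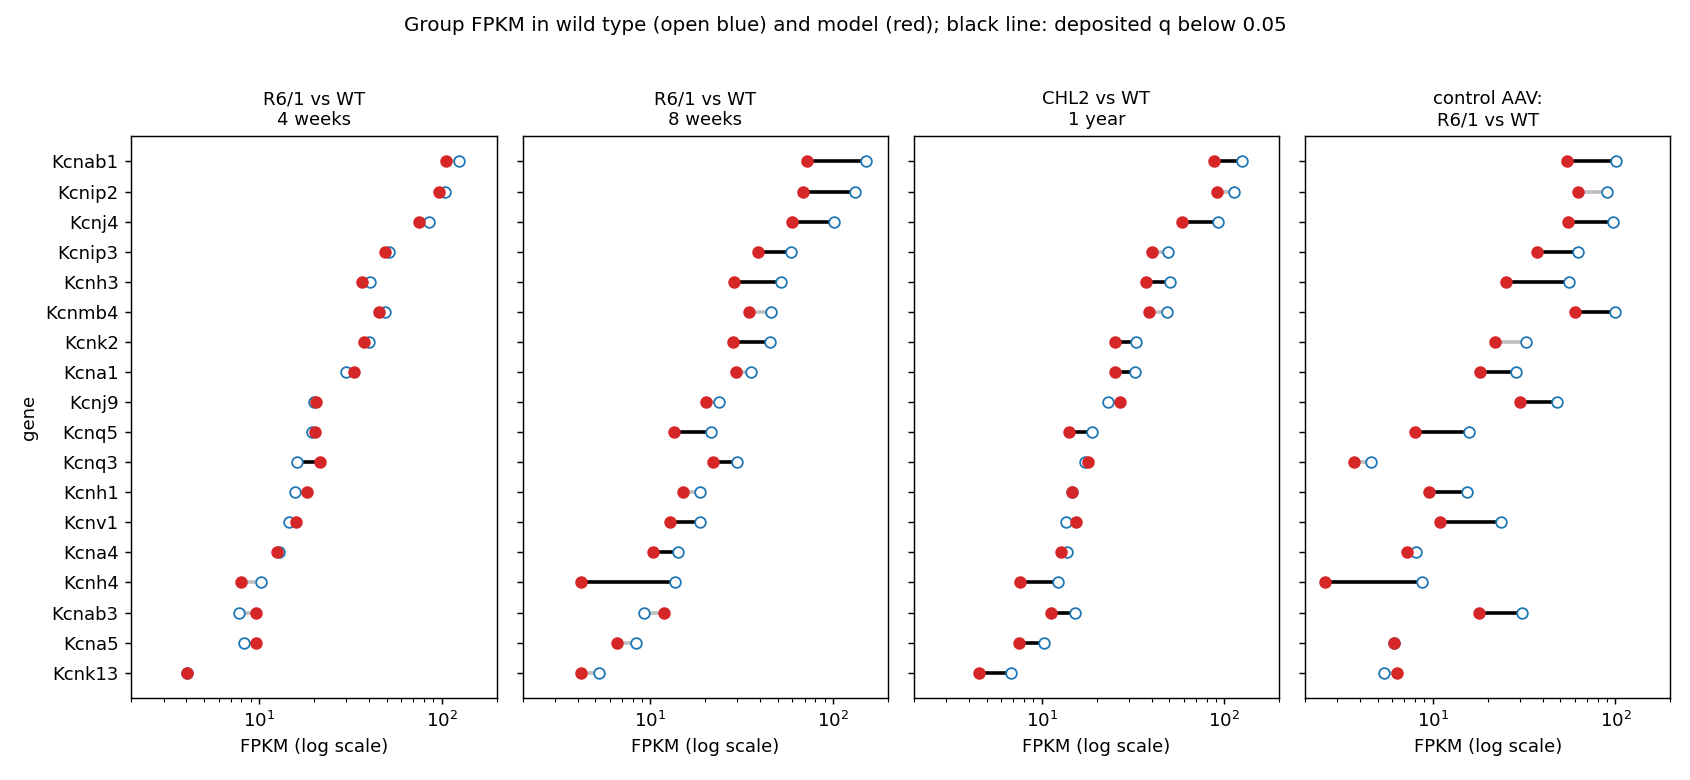
FPKM (log axis) of 18 members called lower in at least 1 genotype comparison, in wild type (open blue) and in the model (red), 1 panel per comparison; each point is 1 pooled group value. Black lines mark q below 0.05 in the authors' deposited table: Kcnab1, Kcnj4, Kcnh3, Kcnq5 and Kcnh4 have one in 3 panels, and Kcnq3 has one at 4 weeks with R6/1 on the right and one at 8 weeks with R6/1 on the left.

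At 4 weeks most members had higher values in R6/1, and 3 passed the threshold. Of 73 members, 55 had the higher value in R6/1, against 50.5% of all genes that reached the FPKM minimum. The 3 calls were Kcnh7, an ERG gene, which rose from 2.42 to 4.33 (log2 fold change 0.84), the EAG gene Kcnh5, which rose from 2.62 to 3.94 (0.59), and Kcnq3, by the authors' deposited table. Kcnh5 and Kcnh7 had q = 0.0145, the lowest by the authors' deposited table. At 8 weeks neither was called: Kcnh7 read 5.01 and 4.77, and Kcnh5 read 4.60 and 4.06. Unadjusted p below 0.05 for a higher value was reached by 11 of 73 members (background 3.26%).

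Transcript length moved with these values. Over all genes, change and longest transcript correlated with Spearman 0.47 at 4 weeks and 0.39 in CHL2, against -0.11 at 8 weeks and -0.060 between the control-AAV groups; these are correlations across genes, which share their libraries. The members had a median longest transcript of 4047 bases, against 3414.5 for all genes at 4 weeks, and Kcnh7 (13321 bases) and Kcnq3 (11824) are among the long ones, while Kcnh5 has 4058. After genes were put in 10 classes of transcript length and the median change of all genes in the class was taken away, 45 of 73 members were higher at 4 weeks in place of 55. The 4-week changes became 0.71 for Kcnh7, 0.56 for Kcnh5 and 0.29 for Kcnq3, and the 8-week change of Kcnq3 became -0.41. In CHL2, 34 of 73 members had the higher value before and 28 after this step. The part of length in the results was not tested further.

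Markers of hypothalamus and septum moved in all 4 genotype comparisons, with or without members called higher. Their summed FPKM (6 genes) went from 112 to 47.1 at 4 weeks, with 3 of 6 called lower, where Kcnh5, Kcnh7 and Kcnq3 rose. In CHL2, where Kcnc4, Kcng1 and Kcnk9 rose, it went from 73.9 to 165, with 5 of 6 called higher. At 8 weeks, with 0 members called higher, it went from 16.1 to 27.5 (1 of 6 called higher). In control-AAV R6/1, again with 0 members called higher, it went from 64.5 to 349 over 5 listed genes (5 of 5 called higher). The summed FPKM of 5 oligodendrocyte markers went from 4203 to 2837 in CHL2, with 2 of 5 called lower. None of these markers was at 0, and their part in the channel results was not tested.

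**Figure D3:**
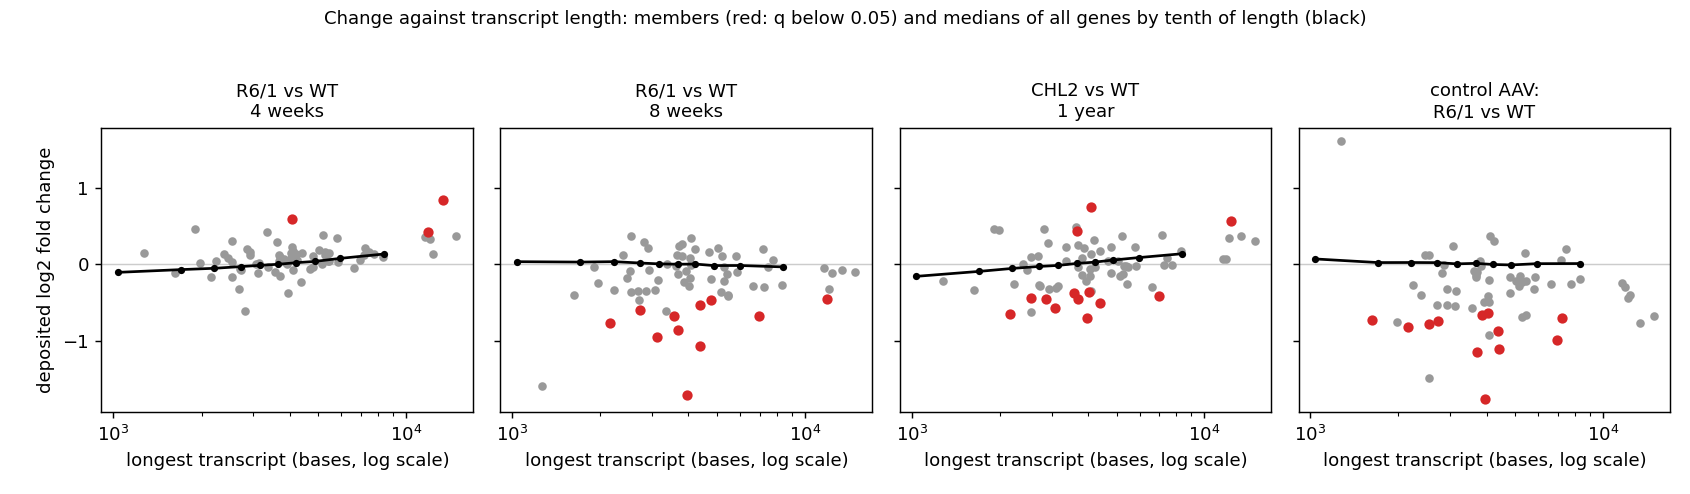
Deposited log2 fold change against the longest annotated transcript (bases, log axis) of up to 70 members, in 4 genotype comparisons; red points have q below 0.05 by the authors' deposited table. The black line joins the medians of all genes in 10 classes of length: it runs from -0.10 to 0.13 at 4 weeks and from -0.16 to 0.14 in CHL2, and from 0.035 to -0.033 at 8 weeks.

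**Figure D4:**
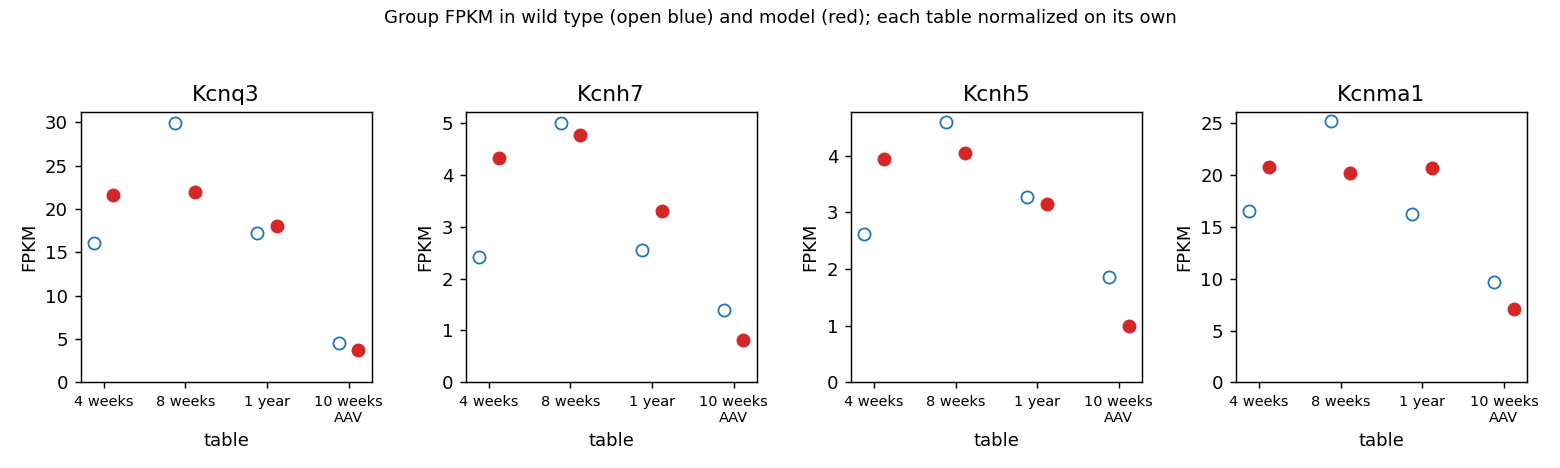
FPKM of Kcnq3, Kcnh7, Kcnh5 and Kcnma1 in the wild-type (open blue) and model (red) pool of each genotype table, 1 point per pool. For Kcnq3 the R6/1 points stand at 21.6 and 21.9 at 4 and 8 weeks, and the wild-type points at 16.0 and 29.9.

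Elk-1 AAV was compared with control AAV within R6/1. The authors' test called 0 of 60 listed members at q below 0.05, higher (background 0.299%) or lower (0.276%). At unadjusted p below 0.05 there were 6 members higher (background 2.61%) and 0 lower (2.3%). These 6, named after their values were seen, were Kcnj4 (56.3 to 83.5, log2 fold change 0.57, q = 0.0960), Kcnh3 (25.8 to 38.8, 0.59, q = 0.146) and Kcnmb4 (61.2 to 90.6, 0.57, q = 0.207) by the authors' deposited table. The others were Kcnab2 (106 to 142), Kcnip3 (38.2 to 50.3) and Kcnq5 (8.14 to 10.4), with q from 0.637 to 0.999 by the authors' deposited table. The median log2(FPKM + 1) change was 0.024 over the members and 0.013 over all genes.

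This table and the control-AAV genotype table share the control-AAV R6/1 pool, whose member values were 1.02 times higher in the Elk-1 table (60 members), so opposite changes in them are not independent. Set side by side in the order wild type with control AAV, R6/1 with control AAV (genotype table) and R6/1 with Elk-1 AAV, Kcnj4 read 97.5, 55.0 and 83.5, Kcnh3 55.6, 25.2 and 38.8, and Kcnmb4 98.9, 59.8 and 90.6. Kcnab1 read 100, 54.6 and 61.8, Kcnh4 8.73, 2.57 and 3.36, and Kcnj9 47.7, 30.1 and 32.4. On the FPKM scale, the Elk-1 values of Kcnab1, Kcnh3, Kcnh4 and Kcnj9 lie nearer to R6/1 with control AAV. Those of Kcnj4 and Kcnmb4 lie nearer to wild type. On the log2 scale Kcnh3 lies nearer to wild type, and the other genes keep their side.

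Markers of neighbouring tissue and of other cell types moved with the same pools. The summed FPKM of 4 listed thalamic markers went from 18.5 in control-AAV wild type to 49.97 in control-AAV R6/1 (4 of 4 called higher) and, in the Elk-1 table, from 51.2 to 17.7 (3 of 4 called lower) in the authors' deposited tables. That of 5 listed hypothalamic and septal markers went from 64.5 to 349 (5 of 5 called higher) and from 357 to 35.3 (3 of 5 called lower) in the authors' deposited tables. The cortical marker sum was 300.2 and 389 in the Elk-1 table, with 0 of 4 called. In that table the sum of 5 microglial markers went from 185 to 308 (C1qa and C1qb called higher) and that of 6 choroid plexus markers from 1610 to 2290 (Kl called higher). Of 7 interneuron markers, Calb2 was called lower (77.1 to 23.5, q = 0.0122 by the authors' deposited table). None of these markers was at 0, and their part in the channel results was not tested.

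**Figure D5:**
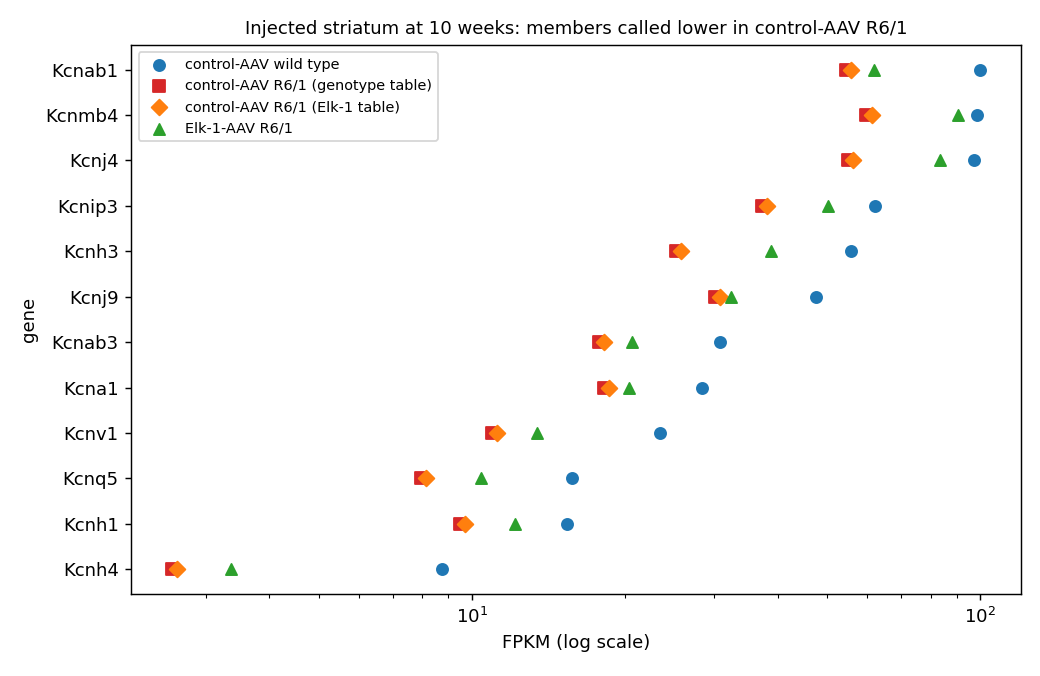
FPKM (log axis) at 10 weeks of 12 members called lower in control-AAV R6/1: wild type with control AAV (blue circles), R6/1 with control AAV as listed in each of its 2 tables (red squares and orange diamonds) and R6/1 with Elk-1 AAV (green triangles). Each point is 1 pooled group value; Kcnj4 stands at 97.5, 55.0, 56.3 and 83.5 in that order, and Kcnh4 at 8.73, 2.57, 2.63 and 3.36.

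Partner genes of potassium channels gave at most 1 call in each direction in the comparisons counted here. Of 24 such genes (Kv4 partners of the DPP family, Hcn pacemaker channels, Kcne subunits, sulphonylurea receptors and others), 21 were listed in each of the uninjected tables and 15 in the control-AAV genotype table. Called at q below 0.05 in the authors' deposited tables were 0 of 21 at 4 weeks (background 0.275% higher, 0.193% lower). At 8 weeks 1 of 21 was called higher (0.789%) and 1 lower (5.34%). In control-AAV R6/1 1 of 15 was called higher (0.724%), and under Elk-1 AAV 0 of 14 listed (0.299% higher, 0.276% lower). The CHL2 count is not reported here, and no test compared the partners with the rest of the genes. The pacemaker gene Hcn3 rose from 4.90 to 7.45 at 8 weeks (q = 0.0138 by the authors' deposited table). Kcne2, a subunit gene of choroid plexus, fell from 6.42 to 2.38 at 8 weeks (q = 0.00160) and rose from 1.30 to 7.13 in control-AAV R6/1 (q = 0.00983) in the authors' deposited tables. These are the directions of the choroid plexus marker sums; their part was not tested. The Kv4 partners Dpp6 and Dpp10 were called in no table; Dpp6 read 94.5 and 103 and Dpp10 33.4 and 33.2 at 8 weeks.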

How the data were processed

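Striatal RNA was sequenced from TruSeq libraries (labels' protocols). Per the submitters' processing notes, Bowtie, TopHat, Cuffdiff and Cufflinks were run on mm9; versions, annotation and strand setting are not stated in what was read. The authors deposited 5 tables with 1 pooled FPKM value per group, their log2 fold change, a test statistic (a score, not used here), and a p-value and q-value. Recomputing Benjamini-Hochberg values from the deposited p-values of a table gave its q-values within 1e-06. The lowest p is 5e-05. Depth and spread per library are unknown, so calls are the authors', at q below 0.05, and these p-values may measure technical spread only. The members and lists were chosen with earlier results of these data known. Changes were taken as differences of log2(FPKM + 1) between groups (Python 3.11.15, pandas 2.3.3). Median changes over all genes use those reaching a mean of 0.5 FPKM; shares called use all rows. Transcript length is the longest GENCODE M21 transcript of a symbol, found for at least 98.8% of rows and all 73 members; medians in 10 classes of length were tested on simulated data. Named were members called in a table, the highest member of each subfamily and 18 genes fixed by cell type; others were added as boundary values or after their values were seen. Values of some members and partners are not reported here, though all members enter the counts. Promoter windows are RefSeq's (GRCm38.p6), cut to 250 bases.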

Additional observations from a re-analysis of the deposited data

How the results depend on the processing

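No paired analysis was possible because the tables hold 1 pooled value per group; for the same reason the limma fit and the fits leaving out a library were not run. Under q below 0.01 in the authors' deposited tables, the members called higher went from 3 to 0 at 4 weeks and from 3 to 1 in CHL2. Those called lower went from 10 to 4 in CHL2 and from 13 to 8 in control-AAV R6/1. Under q below 0.1, those called higher went from 3 to 5 in CHL2 and from 0 to 1 under Elk-1 AAV. The other counts stayed within 1.5 times. An FPKM minimum of 2 left each count within 1.5 times. Without a minimum the members were the same 73 genes, so that setting could change nothing. Each of the 5 median changes kept its sign and moved by less than 0.1 log2 units under each setting tried. These were pseudocounts of 0.1 and 5, the FPKM minimum of 2, centring on all genes and centring by class of length. No called member could change sign under either centring. The smallest log2 fold change of a called member was 0.36 in size, and the largest median taken away was 0.16 in size. Length centring moved 15 of 148 named values by 0.1 or more.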

Other observations

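Wild-type and R6/1 levels of the members were also set across ages. Of the 72 members listed in both, 56 were higher in wild type at 8 weeks than at 4 weeks (median log2 ratio of FPKM 0.21), and 25 were higher in R6/1 at 8 weeks than at 4 weeks (median -0.075). These counts were not computed over all genes, so they are not shown to be particular to the members. Across the 72 members, this log2 ratio correlated with transcript length, with Spearman 0.30 in wild type and 0.096 in R6/1. The tables were normalized separately and no test could be run.

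Across 67 members the log2 ratio of control-AAV wild type to 8-week wild type correlated with transcript length (Spearman -0.57, a description across genes of 2 pools normalized in separate tables). Kcnq3 read 29.9 and 4.57 in these 2 pools, Kcnma1 25.2 and 9.70, and Kcnn3 7.25 and 2.21. Kcnmb4 read 46.1 and 98.9, and Kcnj9 23.7 and 47.7.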
